A study of Oncorhynchus mykiss with 6 samples.

Results

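The transcripts described here are known long non-coding RNAs (lncRNAs, longer RNAs with no annotated protein) that were present in all liver libraries of a rainbow trout heat-stress study. They were chosen by level: a RefSeq identifier below XR_002469850, a complete entry in all 6 library tables, and at least 0.5 FPKM (fragments per kilobase of transcript per M fragments, where M stands for 1000000) in each library. This kept 80 of 1498 listed transcripts (5.34%). The choice used the FPKM of both groups but not the direction of any difference, so levels, spreads and counts of members are given as descriptions, and a transcript that is silent at one temperature could not be a member.

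Both groups were liver of rainbow trout (Oncorhynchus mykiss) aged 150 days, with no genetic modification named. The control group of 3 libraries came from fish held at 18 °C, and the heat group of 3 libraries from fish whose tank was warmed by 1 °C each 24 h until 24 °C. Female fish were used, and the labels' protocols mention mixing of total RNA without saying which fish make up a library. A library may therefore be a pool, fish of a group may have shared a tank, and SDs and p-values then measure how far these libraries differ, a difference that may be technical. The tables hold lncRNAs only, so the liver label could not be checked against protein-coding marker genes. In whole tissue, fewer cells of a type and less RNA per cell cannot be told apart.

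Rainbow trout is a cold-water salmonid, and its liver makes plasma proteins, handles lipids and responds to warming with a broad change in transcription. lncRNAs act in several ways: some shape transcription of genes close by, some hold proteins in nuclear bodies, and others bind RNA or protein in the cytoplasm. Many are expressed at low levels and in few tissues, and most salmonid lncRNAs are known only as annotated loci, so the transcripts below have no assigned function. Of the 80, 30 (37.5%) could be matched by accession, without its version number, to 28 genes of the RefSeq annotation USDA_OmykA_1.1. All of them had LOC symbols. The others are named by transcript identifier alone.

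The implied library totals ranged from 27.9 to 41.2 M fragments. The part of the list shared by all libraries held 72058 to 124458 estimated reads per library, of which the 80 transcripts took 86.5% to 92.9%. A single member, XR_002468514.1, held 67.3% to 73.4% of the reads of this shared part, and the 80 were chosen by level. Of the 1498 listed transcripts, 710 had no read in any library. Outside the shared part of the list, a single lncRNA, XR_002469977.1, took 5.36% to 13.4% of the implied total in the 5 libraries where it is listed, and it has no value here for heat replicate 1. Those fragments are part of the total by which FPKM is scaled.

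The 80 levels spanned a wide range with a heavy top. The mean over 6 libraries ran from 0.842 to 538.5 FPKM with a median of 2.34 FPKM. There were 7 transcripts below 1 FPKM, 27 from 1 to 2, 29 from 2 to 5, 12 from 5 to 10 and 5 above 10. Lengths implied by the ratio of count to FPKM ran from 189 to 3635 bases, with a median of 1136 bases against 1688 bases for the 146 other transcripts with enough reads to test. FPKM divides by length and a filter on counts does not. A long transcript can thus have enough reads and still miss the level minimum, so nothing is read from this contrast.

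**Figure D1:**
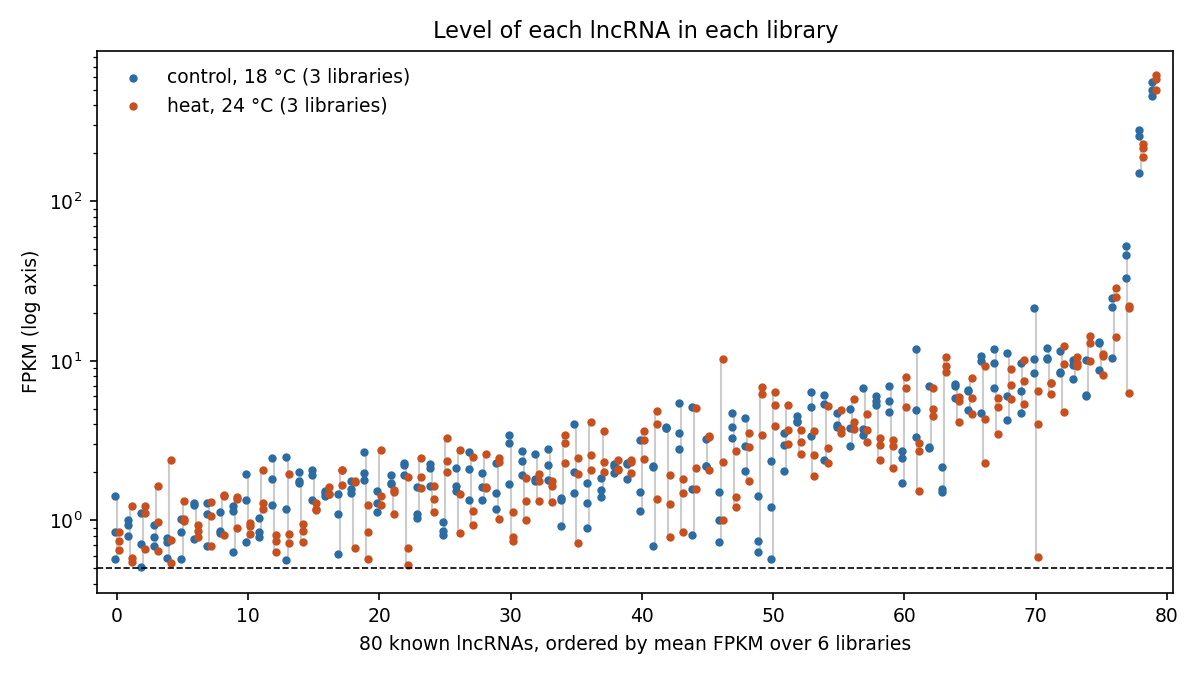
FPKM (log axis) of each of the 80 lncRNAs in each library, ordered by mean level, with blue points for control and orange points for heat, and a dashed line at the minimum of 0.5 FPKM. A pair of transcripts stands above 100 FPKM, and for most of the rest the points of both groups intermingle.

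XR_002468514.1 (LOC110489055) was the most abundant transcript of the shared part of the list in every library. It is 3588 bases long by its ratio of count to FPKM, and its reads numbered 49453 to 91316 per library. It stood at 561.88, 459.89 and 503.18 FPKM in control replicates 1 to 3 and at 617.7, 584.99 and 503.51 FPKM in heat replicates 1 to 3. The groups overlapped, since control replicate 1 lay above heat replicate 3. The edgeR log2 fold change was 0.38 ± 0.15 SE (95% interval 0.02 to 0.74, adjusted p = 0.22), and scaling by library totals gave 0.16 (-0.16 to 0.48).

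XR_002469251.1 (LOC110494310), only 492 bases long, was second, at 255.56, 282.6 and 150.61 FPKM in controls and 230.62, 216.91 and 188.95 FPKM in heat. All heat values lay inside the range of the controls. Its log2 fold change was 0.11 ± 0.29 SE (95% interval -0.58 to 0.80), and it changed sign to -0.11 with library totals. Its gene neighbours crbn, which encodes cereblon, a substrate receptor of a ubiquitin ligase. XR_002469782.1, the third, stood at 46.37, 52.82 and 33.24 FPKM in controls and at 21.47, 6.3 and 22.23 FPKM in heat. Every heat value was below every control value, with heat replicate 2 far below the others. The mean went from 44.1 ± 9.98 to 16.7 ± 8.99 FPKM (SD, n = 3), but the test was not passed (edgeR adjusted p = 0.26, with a log2 fold change of -1.18 and an interval of -2.40 to 0.03).

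Below these, XR_002469747.1 (LOC110497950) averaged 20.9 FPKM and ranged widely in both groups, from 10.43 to 24.62 FPKM in controls and from 14.19 to 28.83 FPKM in heat. XR_002469147.1 (LOC110493454) was at 8.81, 12.94 and 13.2 FPKM in controls and 11.0, 10.66 and 8.12 FPKM in heat. These groups overlapped, and the log2 fold change was -0.01 ± 0.25 SE. LOC110493454 overlaps the protein-coding gene LOC110493452 in the annotation, and whether reads of that gene were counted for it was not tested. XR_002468733.1 (LOC110490666) stayed between 7.66 and 10.57 FPKM in all 6 libraries, and XR_002467891.1 between 4.79 and 12.3 FPKM. XR_002469346.1 went from 7.40 ± 2.29 to 12.4 ± 2.19 FPKM (SD, n = 3). Its groups touched, with control replicate 1 at 10.05 and heat replicate 3 at 9.99 FPKM, and the difference missed the threshold (edgeR adjusted p = 0.16). XR_002468158.1 stood at 10.44, 12.1 and 10.23 FPKM in controls and at 7.26, 6.2 and 7.21 FPKM in heat, a shift that was small and tight in both groups. Its log2 fold change of -0.44 ± 0.25 SE did not pass the test (edgeR adjusted p = 0.37), and it was -0.67 with library totals.

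The lncRNAs with the narrowest intervals were those whose stability the data could show best. For 18 of the 80 (22.5%), the 95% interval of the log2 fold change lay wholly within -1 to 1, that is, within 2-fold of the control level in either direction. Over the 226 transcripts tested the share was 8.41%. The level minimum limits which transcripts can be members, so nothing is read from this contrast. The 18 had fitted log2 fold changes of -0.33 to 0.38 and a median lowest count of 85.3 reads, against 37.4 reads for the 58 members that were neither called nor within these limits. Fewer libraries widen intervals: leaving out control replicate 1, 2 or 3 gave counts of 6, 10 and 7, and leaving out heat replicate 1, 2 or 3 gave 5, 9 and 10. With library totals 12 met the limits, and 9 did so with both scalings.

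XR_002468526.1 had the lowest mean CV of both groups among the 80 (CV, coefficient of variation, the SD as a share of the mean). It stood at 1.49, 1.42 and 1.53 FPKM in controls and at 1.62, 1.45 and 1.45 FPKM in heat. No library departed from the others, with a CV of 3.76% in controls and 6.51% in heat, less than the counting error of its reads (11.6% and 10.3%). Its 95% interval was -0.31 to 0.80. XR_002467948.1 likewise stayed between 1.99 and 2.38 FPKM in all libraries. XR_002469668.1, 3059 bases long, went from 6.65 ± 0.708 to 5.22 ± 0.934 FPKM (SD, n = 3), with an interval of -0.80 to 0.53. XR_002469327.1 went from 2.06 ± 0.483 to 1.68 ± 0.323 FPKM, with an interval of -0.72 to 0.60 that reached -1.01 with library totals. The remaining members with the narrowest intervals were XR_002468514.1, XR_002469251.1 and XR_002469147.1.

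**Figure D2:**
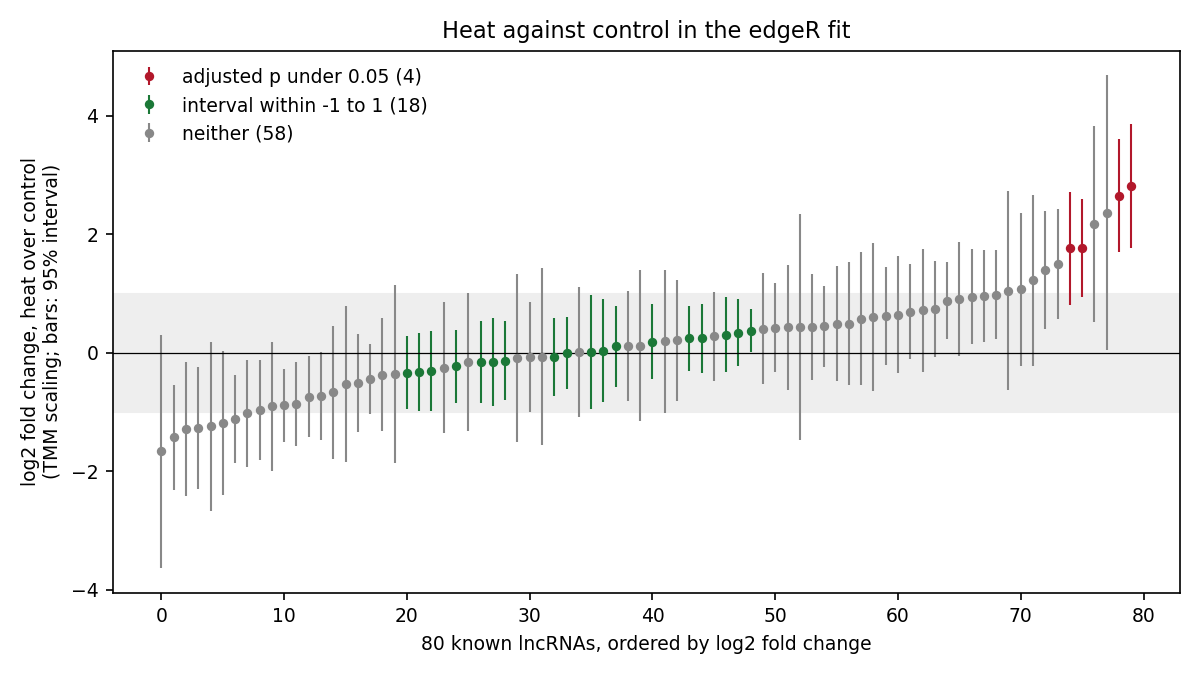
log2 fold change of heat over control for the 80 lncRNAs, ordered by size, with 95% intervals from the edgeR fit (TMM scaling) and a grey band from -1 to 1. The 4 called transcripts lie toward the right end, with XR_002468655.1 and XR_002469318.1, which were not called, among them. The 18 with an interval inside the band lie in the middle, and the 58 others have wider intervals or lie off centre.

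Across the 80, most fitted changes were under 2-fold, which for an estimate without its interval does not show stability. For 61 of them (76.25%) the log2 fold change was under 1 in size, beside 60.6% of all 226 transcripts tested. The level minimum limits which transcripts can be members, so nothing is read from this. The fold changes ran from -1.66 to 2.81 with a median of 0.16, beside a median of 0.02 over all tested. Scaling by library totals moved the median over all tested by -0.20, to -0.17, and that of the members to -0.05. For 7 members the sign depended on which scaling was used. The ratio of mean FPKM was above 1 in 38 members and below 1 in 41. It was 2 or more in 9 members and 0.5 or less in 12. The order of the 80 levels was closer among libraries of 1 temperature, with a Spearman's rho of FPKM of 0.733 to 0.862 (6 pairs of libraries). Across temperatures it was 0.492 to 0.703 (9 pairs). These values describe transcripts of the same libraries. The level minimum used the same FPKM, and rho was not computed over all tested transcripts, so nothing is read from this contrast.

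A small set rose past the threshold. edgeR's quasi-likelihood test over 226 transcripts called 4 of the 80 higher in heat (5%) at an adjusted p under 0.05, beside 5.31% of all tested, and 0 lower, beside 2.65%. At an unadjusted p under 0.05, 13 members were higher (16.25%, beside 12.4% of all tested) and 9 lower (11.25%, beside 7.52%). DESeq2 called 9 members higher, beside 10.2% of all tested, and 4 lower, beside 5.31%. limma on log2(FPKM + 0.1) called 6 higher, beside 7.96%, and 6 lower, beside 7.08%. All 80 passed the filter on low counts. The members had to reach the level minimum in both groups, so nothing is read from these shares.

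The member with the highest fold was XR_002468323.1, of 1455 bases. It stood at 0.74, 1.42 and 0.63 FPKM in controls and at 6.22, 3.42 and 6.9 FPKM in heat, and all heat values were more than those of any control. The log2 fold change was 2.81 ± 0.44 SE (95% interval 1.77 to 3.86, edgeR adjusted p = 0.011). XR_002469317.1, the shortest member at 189 bases, stood at 1.51, 2.16 and 1.58 FPKM in controls and at 8.5, 10.62 and 9.34 FPKM in heat. Its CVs, 20.4% in controls and 11.3% in heat, were less than the counting error of its reads (32.3% and 12.5%). Its log2 fold change was 2.65 ± 0.40 SE (95% interval 1.70 to 3.60, edgeR adjusted p = 0.010), from as few as 7.93 estimated reads in a control library. Both missed the threshold without control replicate 1 (edgeR adjusted p = 0.064 each) or control replicate 3 (edgeR adjusted p = 0.061 and 0.070), with log2 fold changes of 2.58 to 2.67 in those fits.

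XR_002469455.1 (LOC110495604) had the most reads of the 4, at least 158 in each library. It stood at 2.46, 2.73 and 1.7 FPKM in controls and at 5.13, 6.73 and 7.9 FPKM in heat, without overlap (edgeR adjusted p = 0.025 for a log2 fold change of 1.77 ± 0.35 SE). XR_002469833.1 stood at 0.97, 0.86 and 0.81 FPKM in controls, among the closest sets of control values, and at 2.01, 2.35 and 3.26 FPKM in heat (log2 fold change 1.77 ± 0.40 SE, edgeR adjusted p = 0.044). The CV of XR_002469833.1 was 9.30% in controls, less than the counting error of its reads (23.1%). In heat it was 25.4%, more than the counting error (12.1%). Leaving out any 1 library other than heat replicate 1 ended both calls (edgeR adjusted p of 0.078 to 0.125 and of 0.115 to 0.188), with log2 fold changes of 1.49 to 1.89. XR_002469833.1 was called in 4 of 16 alternatives. It was not called under any other scaling of the edgeR fit (adjusted p of 0.053 to 0.060) or when low counts were kept in the edgeR fit (adjusted p = 0.127), so each of these gave 3 higher members.

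Separation of the groups is a looser measure than the test, so that more members met it than were called says nothing of them. In FPKM, the 3 heat values lay wholly above the 3 control values in 10 members (12.5%, beside 12.4% of all tested) and wholly below them in 20 (25.0%, beside 23.5%). These shares are near the background and say nothing particular of the members. The split depends on scaling: with TMM-scaled counts, 16 lay above, beside 15.5% of all tested, and 13 below, beside 18.1%. The 10 above and 13 of the 20 below were separated on both scales, beside 28 above and 41 below among all 226 tested. Nothing is read from these counts. The 10 above include the 4 called members, so 6 above and 20 below were separated in FPKM without a call. The 20 lower members had ratios of mean FPKM, heat over control, of 0.275 to 0.775 and edgeR adjusted p of 0.073 to 0.81.

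**Figure D3:**
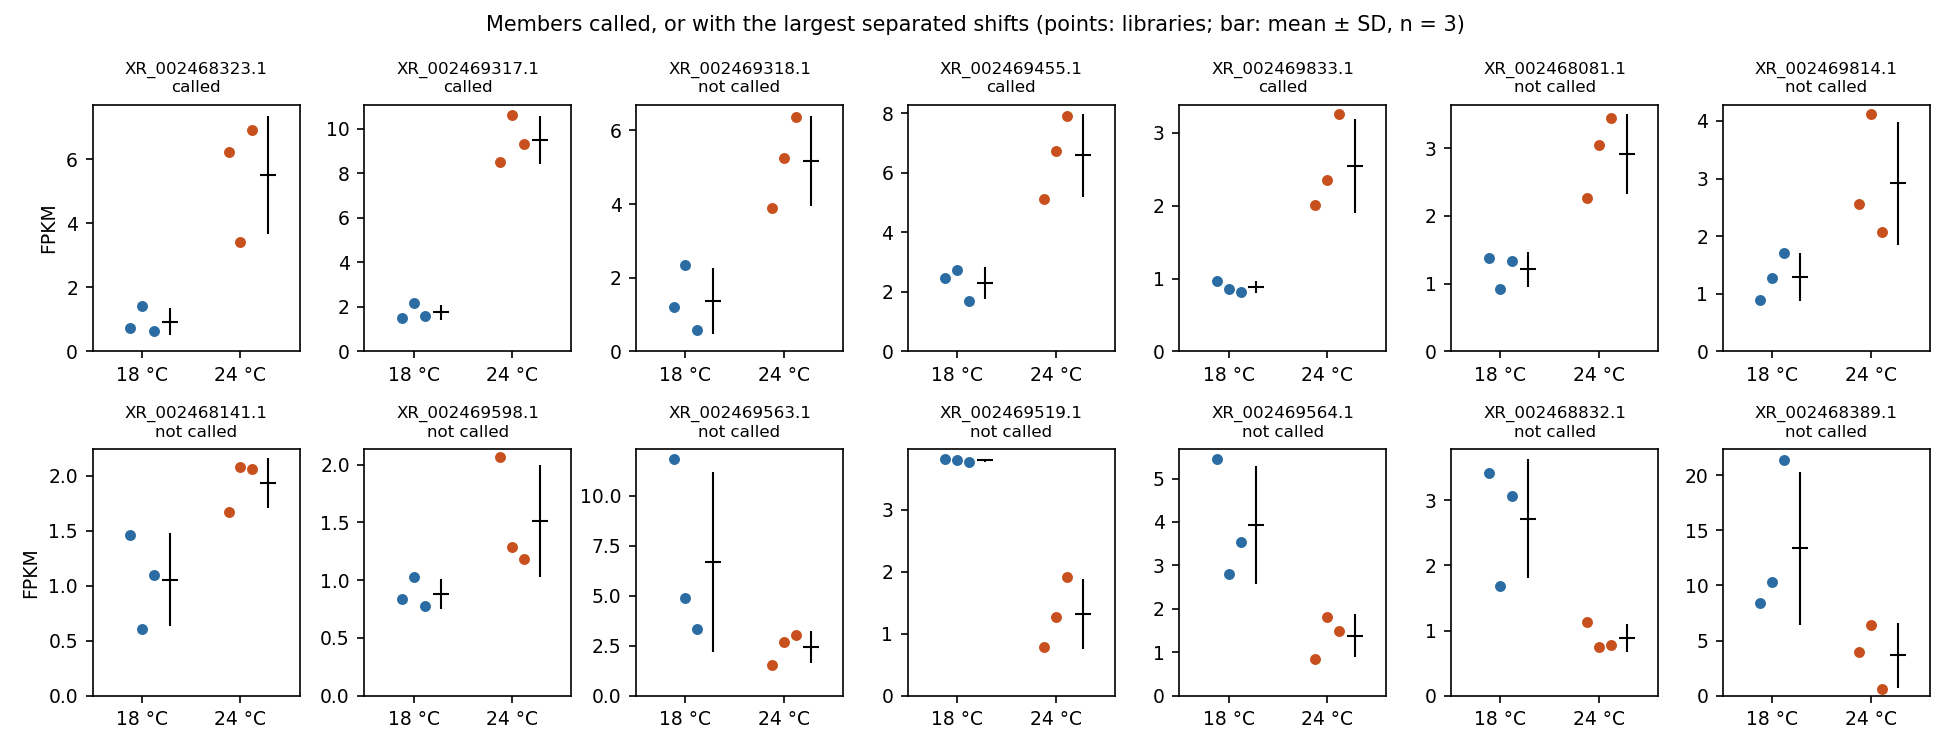
FPKM in each library (blue, control at 18 °C; orange, heat at 24 °C; bar, mean ± SD, n = 3) for the 4 called lncRNAs and the 10 with the largest separated shifts that were not called, ordered by log2 fold change from 2.81 to -1.66. In each panel all heat points lie on one side of the control points, and the vertical axis starts at 0.

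Among the higher ones, XR_002468081.1 (LOC110486552) came closest to the threshold. It stood at 1.38, 0.92 and 1.33 FPKM in controls and at 2.27, 3.04 and 3.44 FPKM in heat (edgeR adjusted p = 0.073 for a log2 fold change of 1.49 ± 0.39 SE). In the annotation the protein-coding gene LOC110486551 overlaps it, and whether reads of that gene were counted for it was not tested. XR_002469814.1 (LOC110498285) stood at 0.89, 1.28 and 1.71 FPKM in controls and at 2.56, 4.12 and 2.08 FPKM in heat, with heat replicate 2 the highest (log2 fold change 1.41 ± 0.42 SE, edgeR adjusted p = 0.099). XR_002469598.1 went from 0.883 ± 0.131 to 1.51 ± 0.485 FPKM and XR_002468141.1 from 1.06 ± 0.427 to 1.94 ± 0.231 FPKM (SD, n = 3), and neither passed the test (edgeR adjusted p = 0.12 and 0.29).

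Among the lower ones, XR_002468832.1 stood at 3.42, 1.68 and 3.06 FPKM in controls and at 1.13, 0.74 and 0.78 FPKM in heat (log2 fold change -1.42 ± 0.37 SE, edgeR adjusted p = 0.073). It passed the threshold without control replicate 2, the lowest control (edgeR adjusted p = 0.025), with library totals (edgeR adjusted p = 0.045), with DESeq2 (adjusted p = 0.011) and in limma on log2(FPKM + 0.1) (adjusted p = 0.039), and in none of the other 12 alternatives. XR_002469519.1 had nearly identical controls, 3.82, 3.81 and 3.77 FPKM, and heat values of 0.78, 1.27 and 1.91 FPKM that differed among themselves. Its CV was 0.696% in controls, which is less than the counting error of its reads, and 42.9% in heat (log2 fold change -1.27 ± 0.43 SE, edgeR adjusted p = 0.14). XR_002468389.1 had the lowest fitted log2 fold change of the members. It stood at 8.43, 10.28 and 21.33 FPKM in controls and at 3.99, 6.42 and 0.59 FPKM in heat, so control replicate 3 was the highest and heat replicate 3 the lowest by far. Its fitted value of -1.66 ± 0.82 SE on the log2 scale (edgeR adjusted p = 0.29) became -1.09 without control replicate 3 and -1.16 without heat replicate 3. XR_002468057.1 was split inside the heat group, at 1.86 FPKM in heat replicate 1, near its controls (2.22, 2.28 and 1.93 FPKM), and at 0.52 and 0.67 FPKM in heat replicates 2 and 3. Its log2 fold change of -0.90 (edgeR adjusted p = 0.29) became -1.49 without heat replicate 1, where it was called lower (edgeR adjusted p = 0.037).

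Spread of the members within a group was similar at both temperatures. The level minimum keeps out transcripts with a low value in any library, which trims these CVs, and 3 libraries give only a rough SD. The median CV over the 80 was 23.4% in controls and 25.3% in heat, with 43 members more variable in heat. Counting error alone would give a median CV of about 10.7% in either group, and the observed CV was above that of counting in 65 members in controls and 72 in heat. Both CVs were under 20% in 13 members. The CV was over 50% in 10 members in controls and in 12 in heat.

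The most variable members owed their spread to different libraries. XR_002468655.1, 288 bases long, stood at 1.0, 1.51 and 0.73 FPKM in controls and at 1.01, 2.33 and 10.23 FPKM in heat. Heat replicate 3 alone was high: the log2 fold change was 2.36 ± 0.97 SE with it and 0.85 without it (edgeR adjusted p = 0.24 and 0.66). XR_002468440.1 (LOC110488560) ranged from 0.56 to 2.49 FPKM in controls and from 0.72 to 1.94 FPKM in heat. XR_002468250.1 had 9.93, 4.72 and 10.72 FPKM in controls and 9.22, 4.31 and 2.28 FPKM in heat, so its groups overlapped.

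**Figure D4:**
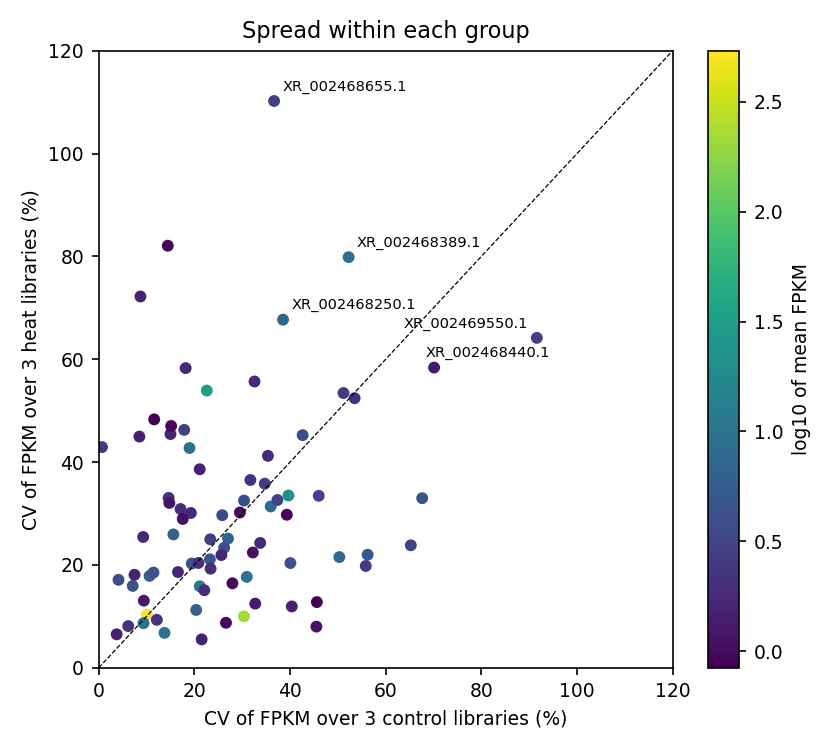
CV of FPKM over the 3 control libraries (horizontal axis, %) and over the 3 heat libraries (vertical axis, %) for each of the 80 lncRNAs, coloured by log10 of mean FPKM, with a dashed line of equal CV. Points lie on both sides of the line (43 above it), and the 5 named transcripts have the largest mean of both CVs.

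There were 5 pairs of members with consecutive identifiers, 10 transcripts in all. XR_002469550.1 and XR_002469551.1 are 2 of the 3 annotated isoforms of LOC110496411, and both had fractional counts in all 6 libraries, which can come from sharing a read among alike transcripts. XR_002469550.1 was at 5.1, 1.58 and 0.81 FPKM in controls and at 1.57, 5.07 and 2.14 FPKM in heat, with CVs of 91.6% and 64.2%. Summed over this pair, the reads per M fragments in heat were 7.03, 7.61 and 6.29, a CV of 9.48%. In controls the sum was 11.2, 3.98 and 4.60, a CV of 60.7%, with control replicate 1 alone high. In heat the sum of the pair thus varied less than XR_002469550.1 alone. The CV of XR_002469551.1 was 21.5% in heat, more than that of the sum, and 50.3% in controls, less than that of the sum.

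XR_002468059.1 and XR_002468060.1 are 2 of the 4 annotated isoforms of LOC110486337, whose long span overlaps that of igfals, the gene of the acid-labile subunit that carries insulin-like growth factors in plasma. XR_002468059.1 stood between 2.92 and 5.74 FPKM and XR_002468060.1 between 0.51 and 1.22 FPKM, so the former was the higher of the pair per length in every library. Their summed reads per M fragments were 3.91 ± 1.07 in controls and 4.66 ± 0.541 in heat (SD, n = 3), a difference within the spread. For XR_002468733.1 and XR_002468734.1 the latter was the more variable, at 0.69, 2.17 and 2.2 FPKM in controls and 3.99, 4.81 and 1.35 FPKM in heat.

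In the remaining pairs both members lay on the same side of their controls. XR_002469318.1, 210 bases long, follows the called XR_002469317.1 and was also separated, at 1.21, 2.34 and 0.57 FPKM in controls and 3.9, 5.25 and 6.36 FPKM in heat. It was not called (edgeR adjusted p = 0.12 for a log2 fold change of 2.17 ± 0.69 SE), with only 3.44 estimated reads in its lowest library. Counts of both were fractional in all libraries, so whether they are separate signals was not tested. XR_002469563.1 (LOC110496534) and XR_002469564.1 (LOC110496535) are separate genes with the protein-coding gene LOC110514975 between them, and their counts were whole in all libraries. XR_002469563.1 stood at 11.83, 4.9 and 3.33 FPKM in controls and at 1.52, 2.71 and 3.04 FPKM in heat. XR_002469564.1 stood at 5.45, 2.81 and 3.53 FPKM in controls and at 0.84, 1.81 and 1.49 FPKM in heat. In both, control replicate 1 was the highest and heat replicate 1 the lowest. Neither passed the test (edgeR adjusted p = 0.29 and 0.17), and without control replicate 1 their log2 fold changes went from -1.24 to -0.48 and from -1.28 to -0.93.

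Among the reads of the shared list, the members other than the most abundant one held a smaller part in heat. The level minimum places transcripts that are low at either temperature among the others, also those that rise from a low level. Nothing is read from this contrast. Leaving out XR_002468514.1, the other 79 held 73.7%, 72.5% and 71.7% of the remaining reads of the shared list in controls and 60.0%, 58.3% and 55.1% in heat. Per M fragments these 79 had 545, 583 and 513 reads in controls and 483, 453 and 429 in heat, and the 1418 other transcripts had 195, 221 and 203 in controls and 322, 325 and 349 in heat. The groups did not overlap in these sums, and no test was made because membership was chosen on these levels. Whether the members' own sum differed depends on the scaling. Per 1000 reads of the TMM-scaled library size, a scale added after the data were seen, the 79 had 201, 192 and 181 reads in controls and 179, 190 and 188 in heat, which overlap. The 1418 others had 71.9, 72.7 and 71.3 in controls and 120, 136 and 153 in heat, without overlap. TMM factors were computed from the 226 tested transcripts, 80 of them members. This scale is thus partly set by the members, and the overlap of their sums cannot show that their level was unchanged. Per M fragments, a few transcripts carried most of the differences. Among members, mean reads per M fragments were 61.2 in controls and 23.1 in heat for XR_002469782.1, and 42.4 and 11.6 for XR_002468389.1, neither of which passed the test. Among non-members, 3 transcripts that were low in controls, XR_002467889.1, XR_002467886.1 and XR_002468948.1, gained 125.1 reads per M fragments in all, beside a net gain of 125.8 over all 1418.

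**Figure D5:**
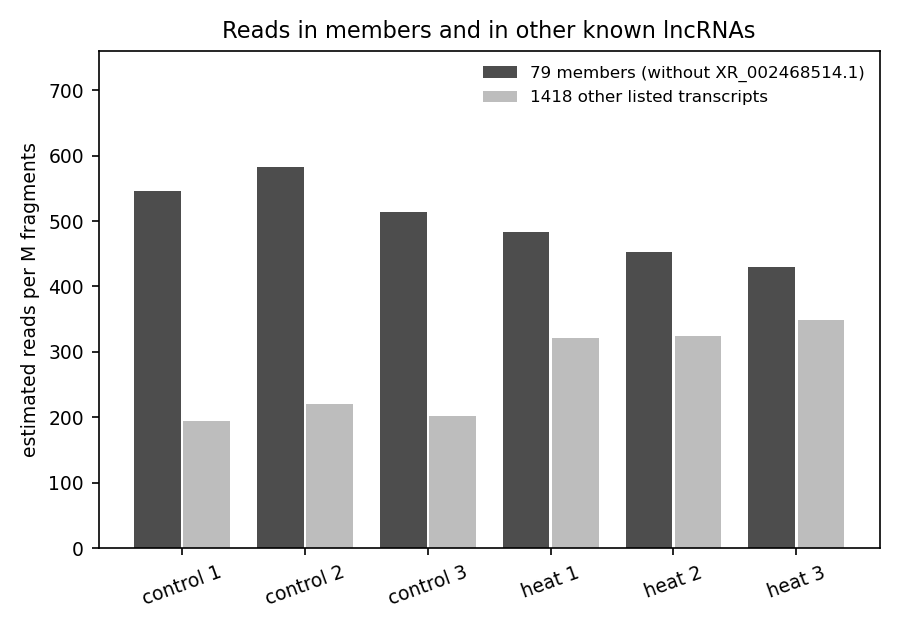
Estimated reads per M fragments in each library, summed over the 79 members other than XR_002468514.1 (dark bars) and over the 1418 other listed transcripts (light bars). Dark bars run from 513 to 583 in controls and from 429 to 483 in heat, and light bars from 195 to 221 and from 322 to 349. Bars are scaled by implied library totals, and with TMM scaling, which is partly set by the members, the groups of the dark bars overlap.

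The level minimum of 0.5 FPKM cuts through a continuous range. Just inside it were XR_002468060.1, whose lowest value was 0.51 FPKM, XR_002468057.1 at 0.52, XR_002469273.1 at 0.54 and XR_002469661.1 at 0.55 FPKM. Just outside were XR_002468749.1 with a lowest value of 0.48 FPKM, XR_002469137.1 at 0.46, XR_002469484.1 at 0.45 and XR_002468948.1 at 0.44 FPKM. The last of these stood at 8.94 to 12.83 FPKM in heat, so a transcript with a large shift was left out.

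Beside the genes named above, some members lie over or next to coding genes with known roles. The spans of 11 of the 30 matched members overlap that of a protein-coding gene in the annotation. Among them are XR_002469701.1 over slc17a8, a vesicular glutamate transporter gene, XR_002468785.1 over sat2b, XR_002468844.1 over armc7 and XR_002468613.1 over mcmdc2. XR_002469701.1 went from 5.63 ± 0.401 to 2.86 ± 0.456 FPKM (SD, n = 3; edgeR adjusted p = 0.20), while the interval of XR_002468844.1 lay within -1 to 1. XR_002469701.1 is also flanked by arntl2, a gene of the circadian clock. Strand and exons were not compared, so reads of an overlapping coding gene could not be told apart from those of the lncRNA.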

How the data were processed

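Liver RNA depleted of ribosomal RNA was sequenced in 3 control and 3 heat libraries with a dUTP second strand, per the labels' protocols (whose extraction text names retinas, whereas the tissue label is liver). The submitters' processing notes name Bowtie2 2.2.8 and TopHat2 2.1.1. Quantifier, genome build and strand setting were not stated in the labels or headers. The authors deposited an estimated count and an FPKM value per transcript, per the file headers. Other deposited values used here were exon starts and ends of assembled transcripts, for lengths.

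The tables of 3 libraries (replicate 1 of each group and heat replicate 3) break off within a line, which was dropped, leaving 1498 known transcripts with a value in all libraries. Library totals were recovered from count divided by FPKM and length, using assembled transcripts with at least 300 reads in the complete tables and known transcripts with at least 100 reads for the others. These totals were 27.9 to 41.2 M fragments. They bear on counting error, which the CV of most members exceeded in both groups.

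Rounded counts went into edgeR 4.0.16 (R 4.3.3). Low counts were filtered by filterByExpr at 10 reads, libraries scaled by TMM, and robust quasi-likelihood F tests were two-sided with Benjamini-Hochberg adjustment over 226 transcripts at a threshold of 0.05. The SE is the size of the log2 fold change over the square root of F, and the 95% interval uses the t quantile. The pipeline was run on counts simulated from the levels and spread of these libraries. Such a run cannot test the scaling or the make-up of the real libraries. Alternatives used DESeq2 1.42.0 and limma 3.58.1 (pseudocounts 0.1 and 0.01), other scalings, no filter, a replicate block and each library left out. Named transcripts are the 10 highest, those called, the 5 largest separated shifts in each direction not called, the 6 with the narrowest limits, the 5 most variable, those nearest the level minimum and consecutive identifiers. XR_002467948.1 and the transcripts named for overlapping genes or for their read totals were chosen after their values were seen. The members and lists were chosen with earlier results of these data known. Promoter sequences were not used here.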

Additional observations from a re-analysis of the deposited data

How the results depend on the processing

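Members called higher in heat numbered 4 (beside 5.31% of all tested) and 9 with DESeq2 (beside 10.2%). There were 3 with each other scaling of the edgeR fit (beside 4.42% in each) and 3 with no filter in edgeR (beside 1.4%). With a replicate block there were 0 (beside 3.1%), and with a library left out 0 to 4 (beside 1.87% to 5.18%). Members called lower numbered 0 (beside 2.65% of all tested), 2 with library totals (beside 3.54%) and 4 with DESeq2 (beside 5.31%). In limma there were 6 at a pseudocount of 0.1 (beside 7.08%) and 2 at 0.01 (beside 3.54%). With a library left out there were 0 to 1 (beside 0.746% to 3.59%). Over all tested, 18 calls became 35 with DESeq2, 34 with limma at 0.1, 9 with a replicate block and 7 to 22 with a library left out. Members with an interval within -1 to 1 numbered 18, and 7 with a replicate block and 5 to 10 with a library left out. The members' median log2 fold change of 0.16 was 0.052 with upper-quartile factors and -0.050 with library totals. With TMM factors computed without XR_002468514.1 it was 0.058. In limma it was -0.059 and -0.060 at a pseudocount of 0.1 and 0.01 (-0.059 without its filter). With a library left out it was 0.15 to 0.21. A minimum of 1 FPKM left 46 members, with 2 called higher, and a minimum of 0.25 FPKM gave 116, with 7 called higher. Over all 226 tested the share called higher was 5.31%. Whether replicate numbers pair the libraries is not known. Deviations from the group means correlated at -0.01, 0.00 and 0.11 for numbers 1, 2 and 3, over 226 transcripts. Between libraries of unlike numbers they correlated at -0.11 to 0.12. With 3 libraries per group these values cannot decide the question. Of the 592 further values for 37 named members, 554 stayed on their side of the threshold, 24 lost a call and 14 gained one. Only a called member can lose a call, so the 24 all fell on the 4 called members. XR_002468323.1 and XR_002469317.1 were each called in 13 of 16 alternatives, XR_002469455.1 in 10 and XR_002469833.1 in 4. The median lowest count of a member was 50.2 reads.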
